A study of Mus musculus with 6 samples.

Results

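The 31 genes described here belong to the retinal pigment epithelium and to the melanosome, the organelle in which melanin is made and stored. They were taken by symbol from a table of 55487 counted genes in mouse retina at embryonic day 16.5, and all 31 were found, each with 1 identifier. Of these, 27 had enough counts to be tested among 17275 genes in all. The comparison is between 3 libraries labelled Foxp1 cKO and 3 labelled control. By genotype label, cKO embryos carried Six3-Cre, a recombinase driven by Six3 sequence and active in the developing retina, on a Foxp1 fl/fl background. The controls were Foxp1 fl/fl without Cre. All animals were C57BL/6 embryos of 1 litter, and each library combined the left and right retinas of 1 animal. Whether the pigment epithelium was peeled from the dissected retinas is not given in the sources used here.

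The retinal pigment epithelium is a single sheet of pigmented cells that lies against the outer face of the neural retina. It comes from the outer wall of the optic cup, and the transcription factor Mitf sets up its pigment programme. Melanin is made inside melanosomes from tyrosine by tyrosinase and its relatives on a fibrous scaffold of Pmel protein. The mature epithelium also recycles the visual pigment chromophore, carries vitamin A and lactate, and takes up shed photoreceptor tips. Neural crest melanocytes, which settle in the choroid behind it, use the same melanin machinery.

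The labels of the groups carry a doubt that touches every direction below. Foxp1, the targeted gene, measured 50.8, 41.1 and 46.2 CPM (counts scaled to the size of the library) across control-labelled libraries 1, 2 and 3. Across cKO-labelled libraries 1, 2 and 3 it measured 72.4, 75.5 and 68.8 CPM, which goes against a knockout label (log2 fold change 0.65, SE 0.07, edgeR adjusted p 4.63e-05). Control 1, control 2 and cKO 1 were labelled female, and control 3, cKO 2 and cKO 3 male. In the libraries labelled control 2 and cKO 2 the sex-linked genes Xist and Ddx3y also went against the labelled sex. The labelled sex matched in 4 of 6 libraries as labelled, and would match in 6 of 6 if control and cKO were exchanged at each replicate number, which would also place Foxp1 lower under the cKO label. In the authors' deposited table, whose name gives cKO against control, Foxp1 has a log2 fold change of -0.60, and all 27 tested members have the sign opposite to that from the counts as labelled. Whether the labels of the 2 groups are exchanged in the count table was not tested. Libraries are therefore called by their labels throughout, and every direction given here would turn if the groups were exchanged. Total counts ran from 23707761 to 25714620 per library. Neural retina markers, with Rax and Pax6 among them, summed to between 3844 and 4124 CPM in every library, so the tissue label matched its defining genes. Atoh7, which retinal ganglion cell precursors need, alone of these passed (log2 fold change 0.30, SE 0.06, edgeR adjusted p 0.0182).

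Mitf and its relatives bind the M-box, TCATGTG, a longer form of the E-box CATGTG. The RefSeq promoter table (GRCm38.p6, the mm10 assembly) held windows of 250 bases before to 50 bases after the start for 23 of the 31 members, and 7 of the 23 had TCATGTG on either strand. All promoter windows in the table held it in 3.77% of cases (1239 of 32851), and the windows of members in 21.9% (7 of 32). The promoters of Tyr, Tyrp1, Dct, Slc24a5, Tspan10 and Trpm1 are printed because these 6 genes held the M-box and varied at least 2-fold between libraries, as described below. They were thus chosen by the motif, out of 11 such varying members with a window. Mitf, Gpnmb, Oca2, Rab27a and Slc16a8 varied as much and had no M-box in their windows. Slc24a5 did not share the order of libraries of the other printed genes. Each is on the strand of its gene, stops before the RefSeq start, and has the M-box in capitals, read as CACATGA where it lies on the other strand.

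Tyr, chr7:87493513-87493570, minus strand, M-box 22 bases before the start: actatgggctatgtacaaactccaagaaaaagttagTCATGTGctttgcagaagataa
Tyrp1, chr4:80834130-80834209, plus strand, M-box 47 bases before the start: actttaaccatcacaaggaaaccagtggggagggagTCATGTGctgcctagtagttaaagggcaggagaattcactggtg
Dct, chr14:118052354-118052433, minus strand, M-box 151 bases before the start: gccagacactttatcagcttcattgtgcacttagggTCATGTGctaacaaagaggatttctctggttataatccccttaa
Slc24a5, chr2:125068078-125068126, plus strand, M-box 13 bases before the start: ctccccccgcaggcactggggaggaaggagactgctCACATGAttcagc
Tspan10, chr11:120442574-120442630, plus strand, M-box 21 bases before the start: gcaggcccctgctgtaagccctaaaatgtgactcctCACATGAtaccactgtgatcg
Trpm1, chr7:64153657-64153736, plus strand, M-box 142 bases before the start: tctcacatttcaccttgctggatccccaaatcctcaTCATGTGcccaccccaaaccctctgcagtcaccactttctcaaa

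In the 3 genes of the tyrosinase family and in Trpm1 the M-box ran in the direction of the gene, and in Slc24a5 and Tspan10 against it. Dct held a second match 232 bases before its start, and Myo7a, which varied little between libraries, held 1. The shorter E-box CATGTG, which every M-box contains, was in 14.2% of all windows and in 12 of the 32 windows of members. The related E-box CACGTG was in 7.15% of all windows and in 3 of the 32. The GENCODE start of Tyrp1 (80834123) lies before the whole stretch printed for it, so that stretch and its M-box are inside the gene as GENCODE draws it. The GENCODE start of Slc24a5 (125068124) lies just before the end of its stretch, after the M-box. The window of Myo7a (chr7:98109199-98109498, minus strand) lies inside the gene, whose GENCODE start is at 98119524. A match describes letters in these windows and does not show binding.

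Mitf itself was a low transcript. The gene (ENSMUSG00000035158, chromosome 6, 97807052 to 98021349, plus strand, mm10) was at 2.72, 4.35 and 2.82 CPM across control-labelled libraries 1, 2 and 3, and at 3.48, 2.45 and 2.05 CPM across cKO-labelled libraries 1, 2 and 3. The libraries labelled control 2 and cKO 1 were highest, those labelled cKO 2 and cKO 3 lowest, and the groups overlapped. The difference, -0.31 on the log2 scale (SE 0.22, edgeR adjusted p 0.536), did not pass the threshold of 0.05. The counts do not separate the Mitf isoforms that pigment epithelium and melanocytes start from different promoters.

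The melanin enzymes had the same order of libraries. Tyr, tyrosinase, which catalyses the first and limiting step of melanin synthesis (ENSMUSG00000004651, chromosome 7, 87424771 to 87493512, minus strand), was at 4.23, 7.05 and 4.26 CPM across control-labelled libraries 1 to 3 and at 7.28, 2.58 and 2.17 CPM across cKO-labelled libraries 1 to 3. Tyrp1, the tyrosinase-related protein that acts late in eumelanin synthesis, was at 5.02, 8.38 and 4.81 CPM against 8.65, 3.37 and 2.69 CPM. Dct, dopachrome tautomerase, was at 10.3, 15.7 and 7.08 CPM against 14.9, 6.11 and 5.41 CPM. In all 3 enzymes the library labelled cKO 1 lay beside control 2 at the top, while cKO 2 and cKO 3 lay below every other library. None passed between the labelled genotypes, with log2 fold changes of -0.37 (SE 0.60), -0.31 (SE 0.58) and -0.33 (SE 0.57) and edgeR adjusted p of 0.840, 0.865 and 0.852.

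Pmel, whose fibrils form the melanosome scaffold, was the most abundant member per length, at a mean of 47.8 TPM (a level scaled by exon length as well as by depth) over the 6 libraries. The gene (ENSMUSG00000025359, chromosome 10, 128704195 to 128720238, plus strand) was at 41.7, 60.2 and 38.1 CPM across control-labelled libraries 1 to 3 and at 59.5, 21.7 and 18.8 CPM across cKO-labelled libraries 1 to 3. It had 1493 and 1520 counts in the libraries labelled control 2 and cKO 1 and 523 and 476 in cKO 2 and cKO 3, so counting error is small beside this spread. Its group means were 46.7 ± 11.8 CPM (SD, n = 3, labelled control) and 33.3 ± 22.7 CPM (SD, n = 3, labelled cKO), and the log2 fold change was -0.48 (SE 0.56, edgeR adjusted p 0.762). Tyrp1, Dct, Tyr and Mitf had mean levels of 5.31, 4.61, 1.77 and 1.31 TPM.

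The other membrane proteins of the melanosome were lower. Gpnmb, a relative of Pmel that macrophages also make, was at 2.85, 4.35 and 2.82 CPM across control-labelled libraries 1 to 3 and at 5.48, 2.41 and 1.46 CPM across cKO-labelled libraries 1 to 3. Oca2, which sets melanosome acidity, was at 1.92, 1.85 and 1.52 CPM against 2.23, 0.249 and 0.948 CPM, the smallest of these resting on 6 counts. Tspan10, a tetraspanin of pigment cells, and Slc24a5, an ion exchanger of the pigment cell, had means of 1.45 and 1.25 CPM. The transporter Slc45a2 and the Pmel partner Mlana had means of 0.582 and 0.732 CPM. In Gpnmb, Tspan10 and Mlana the library labelled cKO 3 was lowest, whereas in Oca2 and Slc24a5 it was cKO 2. Gpr143, the receptor of the melanosome membrane that is mutated in ocular albinism, had 0 counts in the library labelled control 1, where a count of 0 allows up to 0.126 CPM, and 13 counts at most in the others.

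The 3 members that act in melanosome building divided differently. Bloc1s6, pallidin, a subunit of the BLOC-1 complex that all cells use for endosome sorting, was at 32.4, 31.2 and 33.4 CPM across control-labelled libraries 1 to 3 and at 33.7, 34.5 and 35.5 CPM across cKO-labelled libraries 1 to 3. The groups did not overlap, but the difference of 0.10 on the log2 scale (SE 0.07, edgeR adjusted p 0.503) did not pass. Rab32 and Rab38, small GTPases that bring tyrosinase to the melanosome, had means of 1.02 and 0.601 CPM. Rab32 had 21 to 28 counts in every library with the groups just apart, and Rab38 had 6 to 25 counts.

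Of the genes that move melanosomes, the motors were abundant and steady and Rab27a was not. Rab27a, the GTPase that couples melanosomes to motors, was at 3.77, 4.31 and 4.43 CPM across control-labelled libraries 1 to 3 and at 4.74, 2.04 and 3.16 CPM across cKO-labelled libraries 1 to 3. Myo5a, the myosin that Rab27a and melanophilin recruit and which neurons also use (ENSMUSG00000034593, chromosome 9, 75071015 to 75223688, plus strand), was at 241, 229.9 and 217 CPM against 207, 192 and 205 CPM. Every library labelled cKO was below every library labelled control. The log2 fold change of -0.19 (SE 0.05) had the smallest p of all members and still missed the threshold (edgeR adjusted p 0.0788). Myo7a, the myosin that carries melanosomes into the apical processes of the pigment epithelium, was at 58.3, 53.6 and 48.0 CPM against 50.9, 48.4 and 45.7 CPM (log2 fold change -0.14, SE 0.07, edgeR adjusted p 0.289). Mreg, melanoregulin, was at 5.17 to 5.73 CPM in every library, and Mlph, melanophilin, had 4 to 9 counts and was not tested.

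Of the visual cycle and vitamin A genes, Stra6 was the most abundant and Rpe65 the lowest. Rpe65, the isomerase of the mature pigment epithelium, had 0 counts in 4 libraries and 2 and 1 counts in those labelled cKO 2 and cKO 3. Lrat, which esterifies retinol, had 2 to 10 counts, and neither gene was tested. Rgr, an opsin of pigment epithelium and Müller glia, was at 1.26, 1.13 and 1.35 CPM across control-labelled libraries 1 to 3 and at 1.10, 0.707 and 1.34 CPM across cKO-labelled libraries 1 to 3. Rdh5, a retinol dehydrogenase, was at 3.68, 4.27 and 4.60 CPM against 5.13, 2.99 and 3.16 CPM. Stra6, the receptor for retinol-binding protein, was at 19.5, 18.6 and 17.2 CPM against 19.3, 16.1 and 14.7 CPM. Rdh5 and Stra6 were lowest in the libraries labelled cKO 2 and cKO 3, while Rgr was low in cKO 2 alone.

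Among the channels, transporters and secreted proteins, Trpm1 followed the pigment enzymes and Serpinf1 did not. Trpm1, a cation channel of melanocytes and, later, of bipolar cells (ENSMUSG00000030523, chromosome 7, 64153835 to 64269775, plus strand), was at 14.3, 20.7 and 12.4 CPM across control-labelled libraries 1 to 3 and at 21.2, 8.27 and 8.17 CPM across cKO-labelled libraries 1 to 3. Cdh3, P-cadherin, which joins pigment epithelial cells, was at 10.7, 12.7 and 10.9 CPM against 12.2, 6.49 and 6.87 CPM. Ttr, the thyroxine and retinol carrier transthyretin, was at 4.94, 7.74 and 4.30 CPM against 5.83, 1.79 and 3.51 CPM. All 3 were lowest in the libraries labelled cKO 2 and cKO 3, with cKO 1 among the highest.

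Serpinf1, the secreted factor PEDF (ENSMUSG00000000753, chromosome 11, 75409769 to 75422701, minus strand), ran the other way. It was at 1.88, 1.73 and 2.19 CPM across control-labelled libraries 1 to 3 and at 2.47, 2.91 and 3.24 CPM across cKO-labelled libraries 1 to 3, so the groups did not overlap. The difference, 0.57 on the log2 scale (SE 0.20, edgeR adjusted p 0.155), did not pass. Slc16a8, the lactate transporter MCT3, was at 1.72, 1.41 and 0.506 CPM against 2.31, 0.540 and 0.434 CPM. Best1, bestrophin, stayed between 1.09 and 1.57 CPM in every library.

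**Figure D1:**
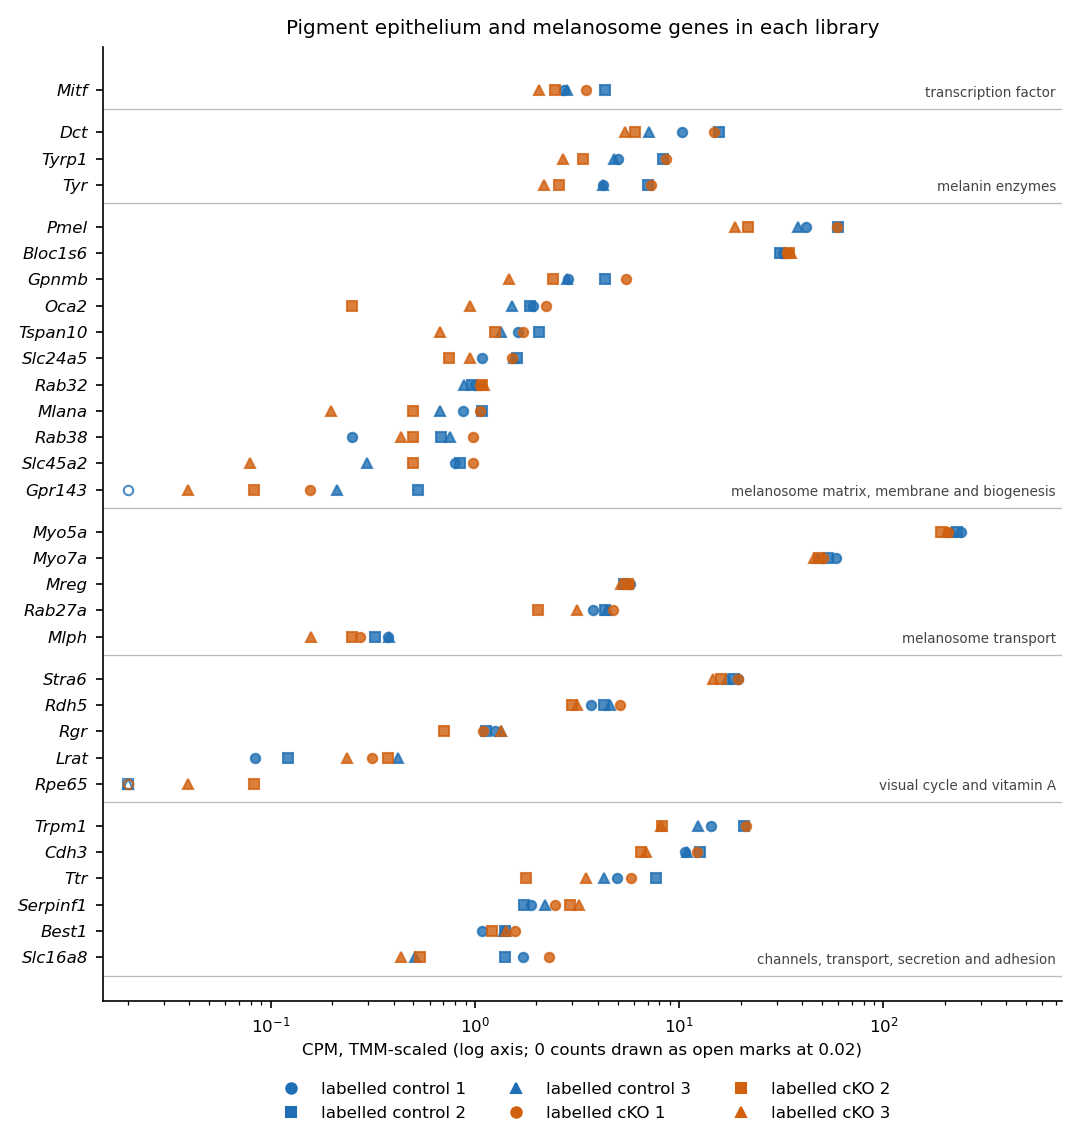
Level of each of the 31 members in each library on a log axis of CPM, grouped by role, with colour for the labelled group and shape for the replicate number. In Pmel, Tyr, Tyrp1, Dct and Trpm1 the libraries labelled control 2 and cKO 1 lie together at the top and cKO 2 and cKO 3 at the bottom, while Myo5a, Myo7a, Bloc1s6 and Mreg form tight clusters.

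In the pattern that ran through the pigment genes, the highest libraries carried both labels and the lowest were labelled cKO. Of the 24 members with a mean of at least 1 CPM, 13 differed at least 2-fold between their highest and lowest library (54.2%), against 802 of 14756 tested genes at that level (5.44%). The 13 were Mitf, Tyr, Tyrp1, Dct, Pmel, Gpnmb, Oca2, Slc24a5, Tspan10, Rab27a, Slc16a8, Trpm1 and Ttr. In 13 of the 13 the highest library was labelled control 2 or cKO 1 and the lowest was labelled cKO 2 or cKO 3. In 9 of the 13 both of the highest libraries were control 2 and cKO 1 and both of the lowest were cKO 2 and cKO 3. In bulk samples fewer pigmented cells and less pigment RNA per cell cannot be told apart.

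Summed over the 13 genes, the level was 96.1, 139.7 and 85.9 CPM across control-labelled libraries 1, 2 and 3 and 139, 53.6 and 50.4 CPM across cKO-labelled libraries 1, 2 and 3. The ratio of the highest to the lowest library was 2.77, and the labelled groups overlapped. Every library labelled female was above every library labelled male in this sum. By Xist and Ddx3y, which place control 2 as male and cKO 2 as female, the sexes overlapped. A part of sex in the pigment levels was not tested. With control 2 and cKO 2, doubted for sex, set aside, cKO 1 was still the highest of the remaining libraries and cKO 3 the lowest. The other 11 members at 1 CPM or more, most of whose counts are Myo5a, summed to 377, 361 and 342 CPM against 340, 312 and 323 CPM, a ratio of 1.21 between the highest and lowest. In that sum every cKO-labelled library was below every control-labelled one.

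Tyr, Tyrp1 and Trpm1 kept the most constant proportions to Pmel of the members tested while their level moved. The less constant members were not all rarer, as Dct and Cdh3 had means of 9.91 and 9.97 CPM beside 4.59 for Tyr and 5.48 for Tyrp1. For every 100 counts of Pmel there were 10.1 to 12.2 counts of Tyr, 12.04 to 15.5 of Tyrp1 and 32.4 to 43.5 of Trpm1 across the 6 libraries, although Pmel in CPM ranged 3.20-fold. Dct ran from 18.6 to 28.8 counts per 100 of Pmel and Mitf from 5.86 to 11.3. Gpnmb, Cdh3 and Ttr differed 1.63-, 1.78- and 2.27-fold on this scale. Oca2 ran from 1.15 to 5.04 and Slc45a2 from 0.420 to 2.29, with as few as 6 and 2 counts in a library. Myo5a ran from 348 to 1089.

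**Figure D2:**
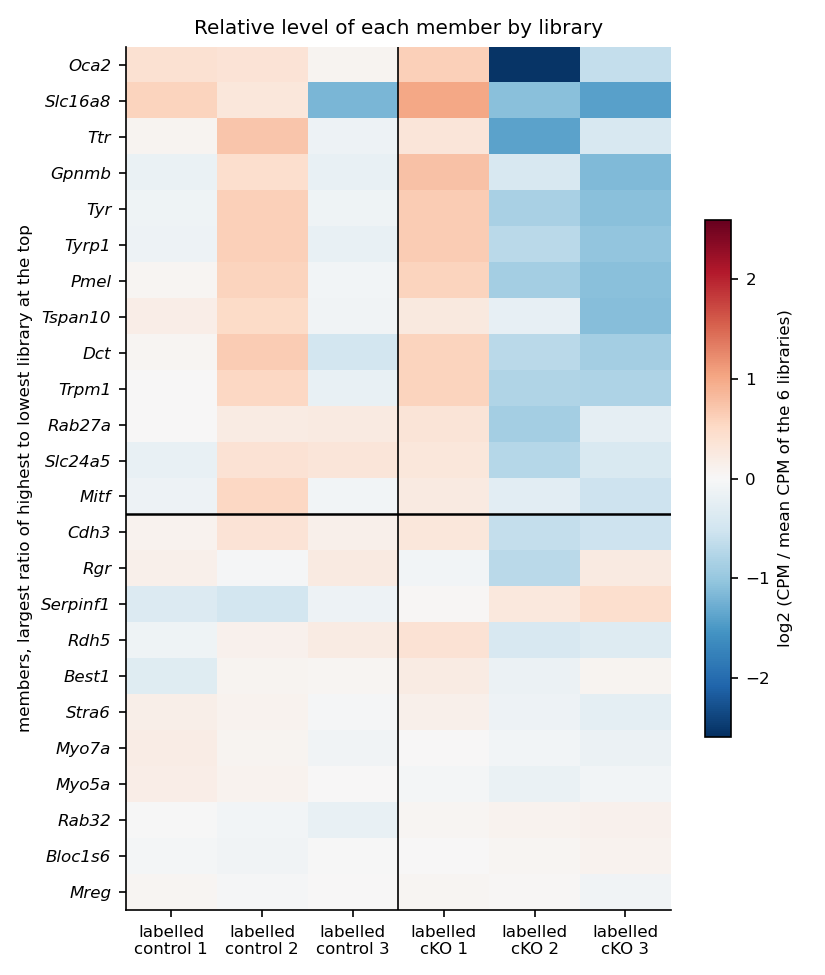
Level in each library of the 24 members that averaged 1 CPM or more, as log2 of CPM over the mean of the 6 libraries (red above, blue below), ordered by the ratio of the highest to the lowest library, with a line under the 13 at 2-fold or more. The columns labelled control 2 and cKO 1 are mostly red above the line and those labelled cKO 2 and cKO 3 mostly blue, and colours fade below it.

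Between the labelled genotypes no member passed. At an edgeR adjusted p of 0.05, 135 of the 17275 genes tested were called (0.781%, of which 0.295% with the higher mean under the cKO label and 0.486% with the lower), and 0 of the 27 members. At an unadjusted p under 0.05 there were 3 members, Myo5a, Myo7a and Serpinf1, or 3 of 27 beside 16.5% of all genes tested. DESeq2 called 1 member, Myo5a (adjusted p 0.0147), beside 566 of the 5887 genes to which it gave an adjusted p. Of the members, only Myo5a and Myo7a were given one. With limma-voom 0 members were called, beside 101 of 17275 genes. The groups did not overlap in 4 of the 27, beside 20.1% of all genes tested. These were Bloc1s6, Rab32 and Serpinf1, higher in the libraries labelled cKO (10.8% of all genes), and Myo5a, lower there (9.3%).

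Most members had a lower mean in the libraries labelled cKO, within wide errors. The log2 fold change was below 0 for 22 of the 27, beside 49.9% of all genes tested, and the median was -0.31, beside 0.00 for all genes. Of the 27, 11 had control 2 and cKO 1 as the highest pair and cKO 2 and cKO 3 as the lowest, so the 22 are not 22 separate observations. Among the 27 the values ran from -0.61 in Oca2 to 0.57 in Serpinf1. The standard errors of Tyr, Tyrp1, Dct, Pmel, Gpnmb and Trpm1 lay between 0.51 and 0.60, whereas those of Myo5a, Myo7a, Bloc1s6 and Stra6 were 0.10 or less.

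The comparison of the pigment genes depended on which libraries were kept. The library labelled cKO 1 was the highest of its group in most of these genes, so lower values without it follow from that. The calls made without it are therefore no separate support for a difference between the labelled genotypes. Without the library labelled cKO 1, 3 members passed, Tyr, Oca2 and Cdh3, beside 2.04% of 17660 genes tested in that fit, and 19 members were at an unadjusted p under 0.05, beside 17.8%. The log2 fold changes were then -1.13 for Tyr (SE 0.23, edgeR adjusted p 0.0256), -1.54 for Oca2 (SE 0.40, adjusted p 0.0466) and -0.77 for Cdh3 (SE 0.13, adjusted p 0.00454), and the median of the members was -0.74. Without the library labelled control 2 the median was -0.08, without cKO 2 it was -0.11 and without cKO 3 it was -0.07. With both libraries doubted for sex set aside, 0 members passed, none was at an unadjusted p under 0.05, and the median was -0.0014.

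**Figure D3:**
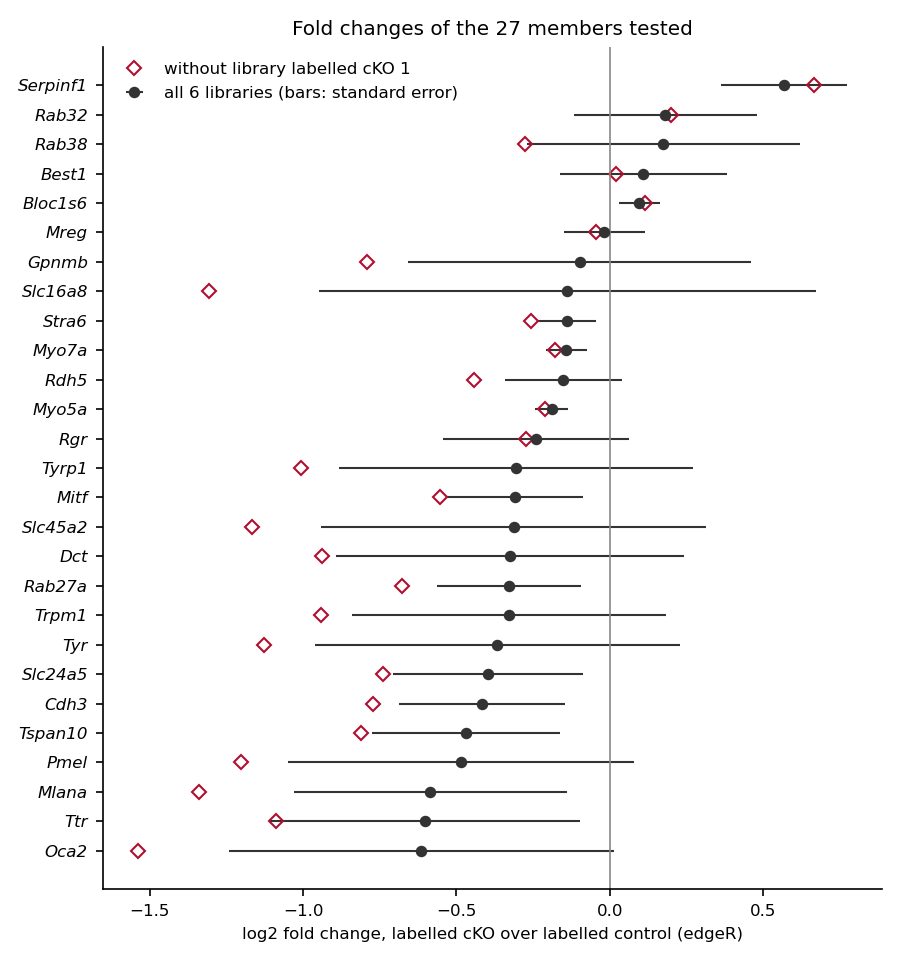
The log2 fold change of the 27 members tested, libraries labelled cKO over labelled control, from all 6 libraries (filled, with bars of 1 standard error) and without the library labelled cKO 1 (open). With all libraries 22 of the 27 lie below 0, many with wide bars. Without cKO 1, the highest of its group in most of these genes, the pigment genes move to lower values, as Tyr does from -0.37 to -1.13.

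Myo5a was the member nearest to a call. Across the genes tested, which are not independent replicates, log2 fold change and summed exon length had a Spearman correlation of -0.272, and the exons of Myo5a sum to 14803 bases against a median of 3922. With that trend removed, an alternative added after seeing the data, its log2 fold change was -0.08 (SE 0.05, edgeR adjusted p 0.537). Over the alternatives tried its adjusted p ran from 0.0147 to 0.722. The authors' deposited table lists Myo5a at a log2 fold change of 0.20 with an adjusted p of 0.0179. The authors' deposited table lists 30 members, of which 24 had log2 fold changes above 0 and 6 below, and 4 have an adjusted p, with Pmel at 0.71 (adjusted p 0.535).

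Genes of the same pathways outside the member list were taken from lists. Of 24 other genes of the pigment epithelium 21 were tested, with 15 below 0 and 6 above and a median log2 fold change of -0.13. Otx2, which pigment epithelium shares with photoreceptor precursors and other retinal cells, was at 222 to 232 CPM in every library, with a log2 fold change of 0.03 (SE 0.05, edgeR adjusted p 0.833). Of the 21, 6 had control 2 and cKO 1 highest and cKO 2 and cKO 3 lowest, namely Rlbp1, Krt18, Krt8, Timp3, Sulf1 and Ezr, chosen for naming by that order.

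The 26 other genes of melanosomes and lysosome-related organelles, such as the subunits of BLOC-1, the Hps proteins and the AP-3 adaptor, were all tested and 0 passed. Of these 12 were below 0 and 14 above, with a median of 0.03, and 6 were at an unadjusted p under 0.05. Ap3d1, the delta subunit of AP-3, averaged 184 ± 2.91 CPM (SD, n = 3) under the control label and 172 ± 1.67 CPM (SD, n = 3) under the cKO label (log2 fold change -0.10, edgeR adjusted p 0.298). For Vps33a, which acts in vesicle fusion with lysosomes, the log2 value was -0.06 with an edgeR adjusted p of 0.606. The sum of this list, most of it from abundant genes, differed 1.03-fold between the highest and lowest library. Sytl2, a Rab27 effector named for its order, alone of the 26 had the order of the pigment genes, at 3.14, 5.44 and 3.37 CPM against 3.72, 2.33 and 2.49 CPM. Of the relatives of Mitf, Tfe3 and Tfeb had log2 fold changes of -0.09 and -0.12 (edgeR adjusted p 0.515 and 0.842), and Tfec had at most 2 counts in a library.

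Markers of other cells near the eye were set beside the pigment genes in each library, and their part in the pigment levels was not tested. Lens markers (16 genes) summed to 64.9, 264 and 956 CPM across control-labelled libraries 1, 2 and 3 and to 61.4, 19.3 and 267 CPM across cKO-labelled libraries 1, 2 and 3. The highest lens level was in the library labelled control 3, where the 13 varying pigment genes were at 85.9 CPM, and the library labelled cKO 1, high in pigment genes, was second lowest for lens. All 11 lens genes tested were below 0, with Cryaa at -1.95 (SE 1.44) and Crybb1 at -1.83 (SE 1.46), and 0 passed. Markers of the mesenchyme around the eye (14 genes) summed to 71.6, 128 and 124 CPM against 156, 105 and 179 CPM. They were highest in the library labelled cKO 3, where pigment genes were lowest and Col1a1 was at 99.8 CPM. Col1a1 and Col1a2 were the most abundant, and neither passed.

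Melanocytes share the pigment genes, and Sox10, which neural crest melanocytes carry and pigment epithelium lacks, had 5 to 47 counts per library. It was at 1.17, 1.89 and 0.802 CPM across control-labelled libraries 1 to 3 and at 1.29, 0.208 and 0.474 CPM across cKO-labelled libraries 1 to 3. The libraries labelled control 2 and cKO 1 were highest and cKO 2 and cKO 3 lowest, as in the pigment genes, with a log2 fold change of -0.96 (SE 0.54, edgeR adjusted p 0.430). Its part in the pigment levels was not tested. Foxd3 had at most 1 count in a library and Mc1r a mean of 0.277 CPM, while Kit and Ednrb, which retinal cells also make, had means of 46.3 and 40.3 CPM with log2 fold changes of -0.10 and 0.10. The 7 markers summed to between 86.2 and 96.8 CPM, most of it Kit and Ednrb.

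Of the other marker lists, only the choroid plexus list shared the order of the pigment genes in its sum. Such a sum mostly follows its most abundant genes, Clic6 here and Col1a1 and Col1a2 in the mesenchyme list. Among single genes tested, the order was in 1 of 3 choroid plexus, 1 of 7 microglial, 1 of 13 neural retina and 0 of 11 mesenchyme markers. Erythroid genes summed to 73.4, 91.0 and 146 CPM across control-labelled libraries 1 to 3 and to 178, 139 and 109.6 CPM across cKO-labelled libraries 1 to 3, mostly Hbb-bs and Hba-a1. Ciliary margin markers, whose zone borders the pigment epithelium, summed to between 298 and 328 CPM, with Zic2 and Zic1 at log2 fold changes of 0.03 and 0.02. Choroid plexus markers, included because that tissue makes Ttr, summed to 5.48, 7.09 and 4.85 CPM against 5.71, 3.78 and 3.83 CPM, so control 2 and cKO 1 were highest and cKO 2 and cKO 3 lowest. Clic6, the most abundant of them, had that order too and a log2 fold change of -0.51, while Folr1 at -0.34 did not have it. The part of choroid plexus RNA in the pigment levels was not tested. Microglial and endothelial markers summed to between 18.7 and 25.0 CPM and between 297 and 354 CPM, the latter mostly Kdr. In these lists Csf1r, Cx3cr1, Kdr and Cldn5 had log2 fold changes of -0.35, -0.30, -0.17 and -0.20, and no gene passed.

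**Figure D4:**
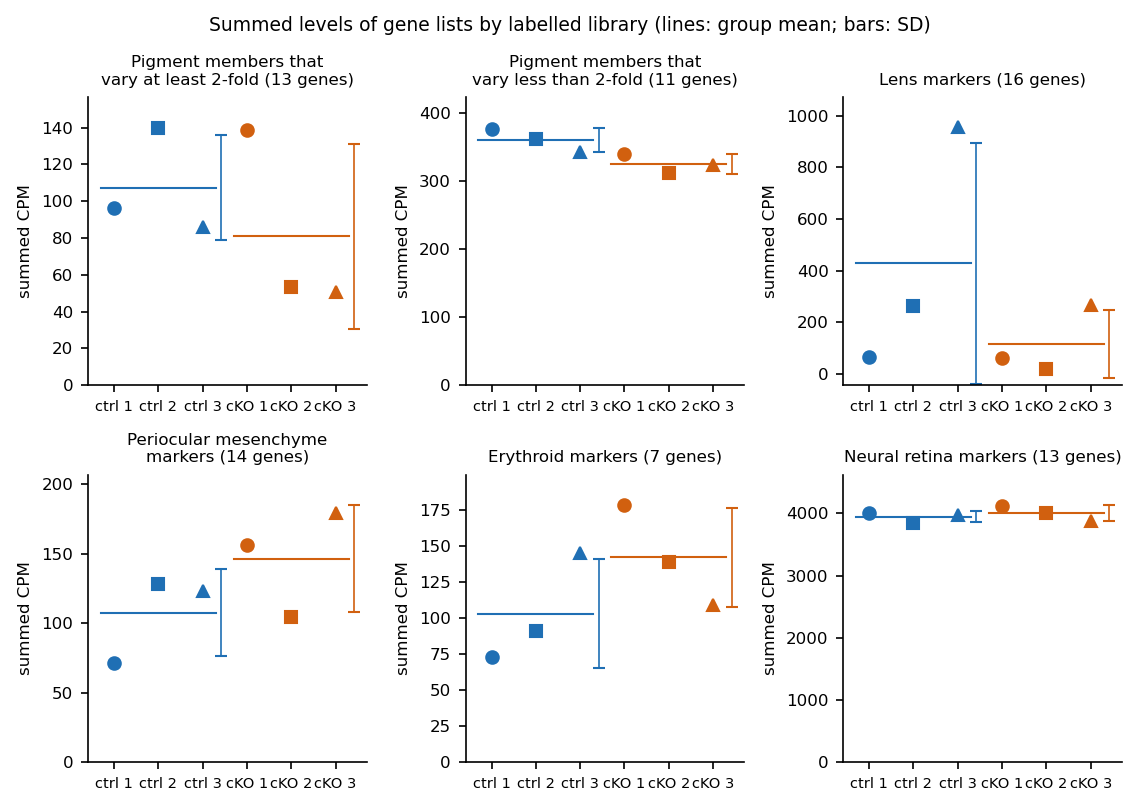
Summed CPM of pigment members and of marker lists in each labelled library, with lines at the group means and bars of 1 SD (n = 3 per group). The varying pigment genes are high in the libraries labelled control 2 and cKO 1, lens markers peak at 956 CPM in control 3, and neural retina markers stay between 3844 and 4124 CPM.

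The genes whose levels followed the pigment genes most closely were ranked by Pearson correlation of log2(CPM + 0.5) with log2 of the sum of the 13 varying members over the 6 libraries. The ranking covered 387 protein-coding genes outside the member list that had a mean of at least 1 CPM and varied at least 2-fold. It describes these libraries, and with so many candidates and 6 points no test is attached. The 10 nearest were Nid2, Myrip, Sema3b, Col8a1, Nqo1, Clic6, Thbs1, Col8a2, Fndc1 and Col4a4. Nid2, a nidogen of basement membranes, was at 7.78, 11.6 and 6.37 CPM across control-labelled libraries 1 to 3 and at 10.8, 3.45 and 3.44 CPM across cKO-labelled libraries 1 to 3. Myrip, which links Rab27a to Myo7a, was at 6.32, 7.57 and 5.27 CPM against 6.97, 3.83 and 3.67 CPM. Col8a1, a short-chain collagen, was at 16.4, 24.6 and 11.5 CPM against 22.2, 6.74 and 8.25 CPM. In all 3 the libraries labelled control 2 and cKO 1 were highest and cKO 2 and cKO 3 lowest. Col8a1, Col8a2, Nid2 and Col4a4 encode proteins of basement membranes or their neighbouring matrix, and none of the 10 passed between the labelled genotypes (lowest edgeR adjusted p 0.213, Col4a4).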

How the data were processed

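RNA was measured by sequencing of ribosome-depleted, directional libraries from the retinas of 6 embryos. Per the submitters' processing notes, processing involved DESeq2 1.32.0, featureCounts 1.5.1, STAR 2.7.6a and cutadapt 2.8, with mm10. Strand use in counting is not given in the sources used here, which leaves overlapping and antisense genes uncertain. Counts per gene and library were deposited as whole numbers. The authors' deposited table of their comparison holds, per the file headers, a mean normalized signal, log2 fold changes with standard errors, a score (the test statistic) and p-values. Columns were matched to samples by the labels' descriptions, which name the animals as separate biological replicates. Names came from the authors' table and otherwise from GENCODE M21.

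Genes were filtered with filterByExpr and tested in edgeR 4.0.16 (R 4.3.3) with TMM, robust quasi-likelihood fits on genotype alone and Benjamini-Hochberg adjustment over all genes at 0.05. Each standard error is the fold change over the root of F. CPM uses TMM-scaled totals, and TPM uses summed exon length in GENCODE M21. Replicate pairs had chi-square to degree-of-freedom ratios from 7.39 to 12.5, so none was a duplicate. Intervals from counts cover counting error only. Scripts were tested on simulated data. Members and lists were chosen with earlier results of these data known. Values in every library were given for members near or past the threshold and, by role, for the most abundant and most variable. Outside the members, up to 4 called genes per list were named, or else the 2 most abundant, and the 10 genes nearest in pattern. Otx2, Sox10, Foxd3, Mc1r, Tfec, Krt18, Ptgds and the genes named for the order of libraries were named after their values were seen. Alternatives were RLE scaling, other filters, DESeq2 1.42.0, limma-voom (limma 3.58.1), labelled sex as a covariate, a replicate block, and leaving out each library. Added after seeing the data were leaving out control 2 and cKO 2 together, exchanged sexes as a covariate, and removal of the exon length trend (lowess span 0.3). Some results that the naming rule would give, calls included, are not reported here.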

Additional observations from a re-analysis of the deposited data

How the results depend on the processing

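The number of genes called over the whole table was 135. It was 75 with a minimum mean of 1 CPM, 566 with DESeq2, 746 with exchanged sexes as a covariate, 31 with the exon length trend removed, 9 without both libraries doubted for sex, and 19 to 778 with each library left out. The DESeq2 calls were among 5887 genes given an adjusted p, fewer than the 17275 of the main fit. With DESeq2 and with exchanged sexes 1 member was called (Myo5a), and 0 to 3 were called with each library left out, Myo5a without the library labelled control 3 and the 3 named above without cKO 1. The replicate numbers did not pair the libraries, with correlations of deviations between same-numbered libraries of 0.118, -0.0616 and 0.246, and with the number as a replicate block 1065 genes and 1 member (Myo5a, edgeR adjusted p 0.0167) were called. The median of the members ran from -0.74 to -0.0668 with each library left out and was -0.0014 without both libraries doubted for sex.

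Without 7 members that other cells also make, the summed level was 132, 175 and 121 CPM in the libraries labelled control 1 to 3 and 177, 85.1 and 77.6 CPM in those labelled cKO 1 to 3, against 475, 504 and 431 and 483, 368 and 375 CPM for all members. As TPM the sums were 211, 254 and 192 against 241, 144 and 146. Of the 27 members tested, 15 kept the sign of their fold change under every alternative run, and 12 did not. With labelled sex as a covariate Gpnmb was at 0.11, Slc45a2 at 0.15, Slc16a8 at 0.36 and Zic1 at -0.0143. Without both libraries doubted for sex Tyr was at 0.16, Tyrp1 at 0.21, Dct at 0.22, Gpnmb at 0.29, Rdh5 at 0.0025, Slc16a8 at 0.30, Trpm1 at 0.14, Ttr at 0.02, Zic1 at -0.0151 and Clic6 at 0.0028. With the length trend removed Zic2 was at -0.0100. With each library left out the range was -0.28 to 0.44 for Rab38, -0.0455 to 0.0283 for Mreg, -0.00096 to 0.20 for Best1, -1.31 to 0.25 for Slc16a8, -1.01 to 0.00039 for Tyrp1, -0.94 to 0.0210 for Dct, -0.79 to 0.25 for Gpnmb, -1.17 to 0.20 for Slc45a2, -0.25 to 0.0817 for Tfeb and -0.0237 to 0.0677 for Zic1. The causes were not tested. Fits with fewer libraries have less power by construction, though with 1 library left out 19 to 778 genes were called, beside 135 with all 6. Members under 1 CPM rest on few counts, and changes in them were not detectable at this depth unless large.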

Other observations

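The order of libraries seen in the pigment genes was read from the members themselves and then looked for among other variable genes. The share expected by chance was not worked out, so the share below is a description. Of 789 genes outside the members that were tested, had a mean of at least 1 CPM and varied at least 2-fold, 24 (3.04%) had the libraries labelled control 2 and cKO 1 as the highest pair and cKO 2 and cKO 3 as the lowest. Outside the fixed naming rule, the pigment epithelium keratin gene Krt18 had this order, at 7.03, 8.82 and 4.55 CPM across control-labelled libraries 1 to 3 and at 9.98, 3.99 and 4.15 CPM across cKO-labelled libraries 1 to 3, and was chosen after its values were seen. The secreted enzyme Ptgds, made by pigment epithelium and meninges, was at 5.86, 6.37 and 3.58 CPM against 5.60, 1.58 and 2.13 CPM. Ptgds did not have this order, as the library labelled control 1 lay above cKO 1. Krt18 and Ptgds had overlapping groups, with log2 fold changes of -0.17 (SE 0.51) and -0.76 (SE 0.58).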
